A study of Mus musculus with 4 samples.

Results

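The 39 protein-coding mouse Hox genes were followed along their 4 chromosomal clusters, out of 21887 protein-coding genes placed on the same lists. They were chosen by symbol, as Hoxa, Hoxb, Hoxc or Hoxd plus a paralog number, which gave 11 Hoxa, 10 Hoxb, 9 Hoxc and 9 Hoxd genes. The set was taken up because of how much of these genes lay inside the called regions of the same 4 lists. The covered percents, region limits and tag levels are therefore descriptions of those lists and carry no test.

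The measurement was chromatin immunoprecipitation with sequencing (ChIP-seq) of RNA polymerase II (Pol II), using antibody 4H8 against the C-terminal domain of its largest subunit. Heart, kidney, liver and lung came from 2 C57BL/6 mice, and no treatment or genotype beyond the strain was labelled. The labels used here give neither age nor sex. Each organ had 1 deposited list of enriched regions, so there was no replicate error and no difference between organs could be tested. The labels used here do not say whether a list holds the reads of 1 mouse or of both.

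Hox genes encode homeodomain transcription factors that give cells their position along the head-to-tail axis of the embryo. Within each cluster the genes lie in the order of their paralog numbers, and the order on the chromosome matches the order in which they are used in time and along the axis. Polycomb proteins keep unused stretches of a cluster silent and trithorax proteins help to keep used stretches active, and many adult cells retain a regional Hox pattern. Paralog group 11 is needed for the developing mouse kidney, and Hoxa5 for the developing mouse lung.

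The caller had stitched 500 bp windows that passed a Poisson threshold of tags (aligned reads) into regions. The tag count of each region was scaled by the authors to 10000000 tags per list. The lists held 61956 (liver) to 101051 (lung) regions, made from 9880184 (heart) to 20058183 (liver) tags. The liver list, the deepest, also took in the most sequence, 210 Mb, and the lung list the least, 161 Mb. On the scaled tags the caller's threshold was 14.5 tags per kb in kidney, 16.6 in lung, 18.2 in heart and 13.96 in liver. Where no region was called, polymerase may still have been present below the threshold. Each of the 4 lists of organ markers (cardiomyocyte, kidney tubule, hepatocyte and lung epithelium) had 6 of 6 genes covered in its own organ. Each list also had 1 gene covered in another organ. This was liver for the cardiomyocyte and lung epithelium lists, heart for the kidney tubule list and kidney for the hepatocyte list. In whole organs, fewer cells of a type and less polymerase per cell cannot be told apart.

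In kidney, 32 of the 39 Hox genes had at least 50% of their annotated span inside called regions, the limit used here for "covered". The count was 2 in heart, 0 in liver and 8 in lung. In percent, 82.1% of the Hox genes were covered in kidney, against 21.1% of all protein-coding genes. In heart 5.13% of the Hox genes were covered, against 16.1% of all genes, and in liver 0%, against 21.9%. In lung 20.5% of the Hox genes were covered, against 15.1% of all genes. Among the 14013 genes with spans in the Hox range, the covered share was 27.3% in kidney, 19.6% in lung, 20.4% in heart and 27.7% in liver. The lung share of the Hox genes was therefore near that background, the kidney share was above it, and the heart and liver shares were below it. The range is wide, 1784 to 44009 bp with a Hox median of 3737 bp, so this background was not matched to the Hox genes on length.

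**Figure D1:**
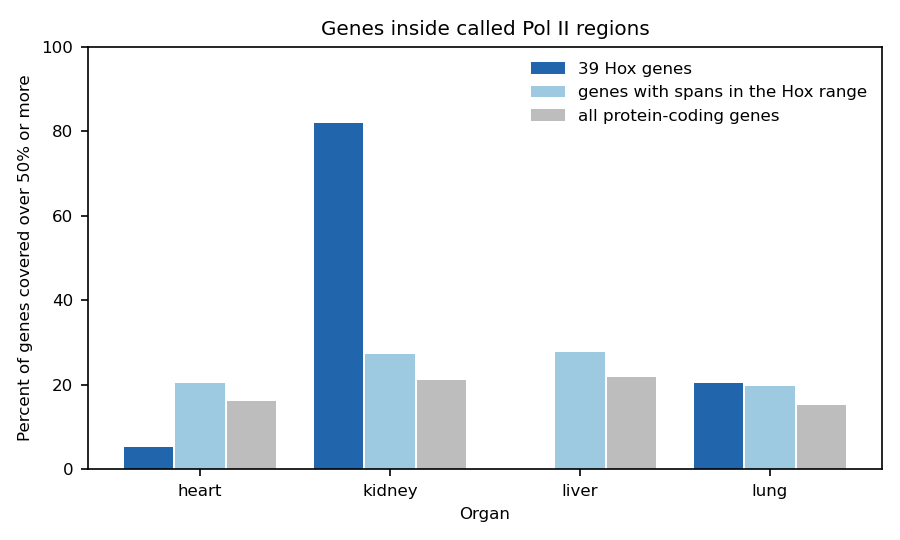
Percent of genes with at least 50% of the span inside called Pol II regions, by organ, for the 39 Hox genes (dark bars), for genes with spans in the Hox range (light bars) and for all protein-coding genes (grey bars). The Hox bar stands at 82.1% in kidney and at 0% in liver, while both backgrounds stay between 15.1% and 27.7% in every organ.

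The median Hox gene was covered over 100% of its span in kidney, 4.62% in lung, 6.88% in heart and 0% in liver. The medians of all genes were 5.07% in kidney, 3.88% in lung, 2.26% in heart and 2.76% in liver. Among genes with spans in the Hox range they were 11.1% in kidney, 8.01% in lung, 5.42% in heart and 7.69% in liver, so the lung median of the Hox genes lay above the first background and below the second. In kidney 25 Hox genes lay whole inside regions, against 0 in heart, 0 in liver and 4 in lung; over all genes the whole span was covered for 7.59% in kidney, 4.36% in lung, 5.56% in heart and 9.96% in liver. No region touched 2 Hox genes in kidney, 18 in lung, 17 in heart and 33 in liver. Over all genes the share with no region was 39% in kidney, 39.7% in lung, 43% in heart and 43.3% in liver. The heart count was thus near its background, and the lung count was a little above. Kidney gave the highest covered percent for 39 of 39 Hox genes when ties are included, and for 33 without a tie. The genes of a cluster are not independent of each other: the 25 genes that lay whole inside kidney regions lay in 6 regions.

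The kidney count moved by more than 1.5 times under 1 of the choices tried. With only the top 50% of regions by deposited score it was 15, of which 1 was in Hoxa, 8 in Hoxb, 4 in Hoxc and 2 in Hoxd. With a limit of 25% of the span in place of 50%, 35 Hox genes were covered in kidney, 15 in lung, 13 in heart and 1 in liver. These are 89.7%, 38.5%, 33.3% and 2.56% of the 39. At 25% the share of all protein-coding genes was 31.8% in kidney, 26.7% in lung, 25.4% in heart and 30.6% in liver. Among genes with spans in the Hox range it was 39.2% in kidney, 33.1% in lung, 30.9% in heart and 37.2% in liver. The heart share, below both backgrounds at 50%, was thus not below them at 25%. There it was near that of genes with spans in the Hox range and above that of all genes. The liver share stayed below both.

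Kidney covered 24 Hox genes that no other list covered, 6 (among them Hoxa3, Hoxa4, Hoxa5, Hoxa9 and Hoxb5) were covered in kidney and lung, and Hoxa2 and Hoxa7 in kidney, lung and heart. The remaining 7 genes, Hoxb13, Hoxb1, Hoxc13, Hoxc11, Hoxc4, Hoxd12 and Hoxd1, were covered in none. Of these, Hoxb13, Hoxb1, Hoxc13, Hoxc4 and Hoxd1 are end genes of their clusters, while Hoxc11 and Hoxd12 have Hox genes covered in kidney on both sides. By paralog group, kidney covered 6 of 8 genes of groups 1 to 3, 14 of 15 of groups 4 to 8 and 12 of 16 of groups 9 to 13. Lung covered 3, 4 and 1 genes of those classes, and heart 1, 1 and 0. Groups 2, 7, 9 and 10 were whole in kidney in every cluster that has them, with 2 of 2, 2 of 2, 4 of 4 and 3 of 3 genes.

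**Figure D2:**
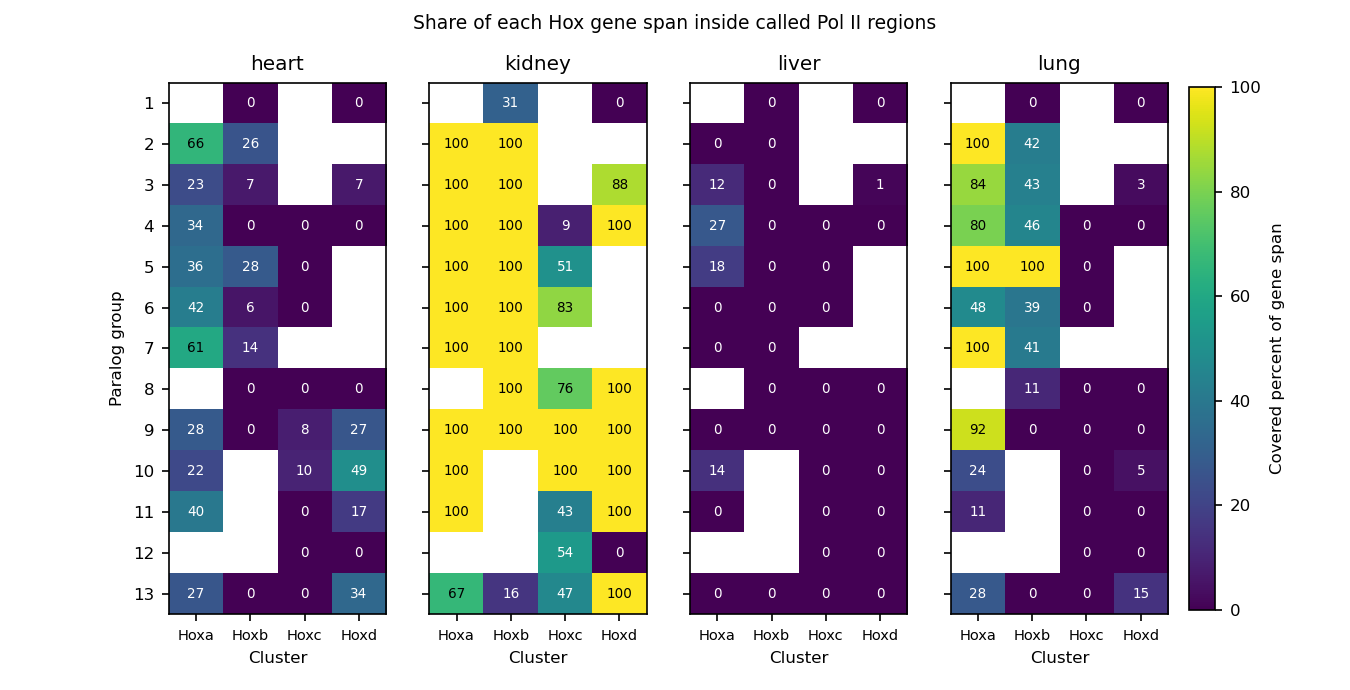
Covered percent of Hox genes, with paralog groups 1 to 13 down the page and the 4 clusters across, in heart, kidney, liver and lung; white cells mark positions with no gene shown. The kidney panel is at 100 for 25 genes and at 0 for Hoxd12 and Hoxd1, the lung values lie mostly in Hoxa and Hoxb, and the highest liver value is 27 for Hoxa4.

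The edges of the covered stretches are easiest to see in Hoxd, where a gene without regions in all 4 lists stands between covered ones. The start windows of 3 neighbours are printed here because the kidney boundary passes between them. They run from 250 bases before to 50 after an annotated start, are from RefSeq on GRCm38.p6 (mm10), plus strand, and have CG dinucleotides in capitals. The window of Hoxd13, a gene of digit and urogenital development, is chr2:74667975-74668274 and was covered over 100% in kidney and 0% in heart, liver and lung. The window of Hoxd12, another posterior limb gene, is chr2:74674763-74675062 and was at 0% in all 4 lists. The first window of Hoxd11, a group 11 gene, is chr2:74679308-74679607 and was covered over 100% in kidney and 0% in the other 3 lists.
Hoxd13: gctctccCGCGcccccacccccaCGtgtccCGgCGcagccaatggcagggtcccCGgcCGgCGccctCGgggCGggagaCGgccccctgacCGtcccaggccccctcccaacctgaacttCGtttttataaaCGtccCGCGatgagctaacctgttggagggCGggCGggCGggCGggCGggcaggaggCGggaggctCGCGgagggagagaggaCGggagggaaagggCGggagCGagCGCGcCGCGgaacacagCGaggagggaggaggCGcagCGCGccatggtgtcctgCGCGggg
Hoxd12: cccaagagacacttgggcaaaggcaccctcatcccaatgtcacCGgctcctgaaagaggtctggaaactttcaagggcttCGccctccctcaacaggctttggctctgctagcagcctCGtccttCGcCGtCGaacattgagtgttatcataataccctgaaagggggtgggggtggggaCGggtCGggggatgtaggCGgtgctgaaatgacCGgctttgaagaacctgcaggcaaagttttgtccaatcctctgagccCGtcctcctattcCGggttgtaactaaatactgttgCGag
Hoxd11: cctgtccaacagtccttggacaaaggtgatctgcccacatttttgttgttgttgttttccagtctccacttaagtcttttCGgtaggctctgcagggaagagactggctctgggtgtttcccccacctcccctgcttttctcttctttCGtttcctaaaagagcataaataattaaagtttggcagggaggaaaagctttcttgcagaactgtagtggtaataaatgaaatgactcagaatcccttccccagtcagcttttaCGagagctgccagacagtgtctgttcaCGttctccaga
These windows hold 37, 13 and 4 CG dinucleotides, and their GC content was 74.3%, 55.0% and 45.7%. Hoxd11 has a second start window, chr2:74682073-74682372, with 25 CG dinucleotides and a GC content of 62.0%. It was covered over 100% in kidney, 73.7% in heart and 0% in the other lists, so the CG count did not separate the Hoxd12 window from its covered neighbours.

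The Hoxa cluster (mm10 chromosome 6, 105.5 kb) was the most covered in every list: 97.4% of its length in kidney, 72.2% in lung, 32.2% in heart and 10.8% in liver. Its low-numbered genes lie at low coordinates and group 13 at the high end. In kidney 1 region, 52157609 to 52249216, held Hoxa2, Hoxa3, Hoxa4, Hoxa5, Hoxa6, Hoxa7, Hoxa9, Hoxa10 and Hoxa11 whole. It was 91.6 kb long with 3562 scaled tags, 38.9 tags per kb, and ranked 15 by tags among the 88200 kidney regions, while its deposited score of 12.5 was below the list's median of 13. A region's tags per kb is an average over its length, so the 9 genes inside it share 1 value and cannot be ordered among themselves.

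At the high-coordinate edge stood Hoxa13, a limb and hindgut gene, with 66.7% in kidney, 28.1% in lung, 26.7% in heart and 0% in liver. Kidney was highest, and liver had no region there. The long kidney region ended 3.41 kb past Hoxa11 and 9.64 kb before Hoxa13, which was reached by a separate 8.03 kb region with 30.3 tags per kb.

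The lung regions of Hoxa were shorter. The 3 longest were 22.2 kb (52158105 to 52180279, 20.5 tags per kb, with Hoxa2 whole), 13.1 kb (23.4 tags per kb, with Hoxa5 whole) and 12.5 kb (18.7 tags per kb, with Hoxa7 whole). A 2.31 kb region over part of Hoxa4 had the highest density of the 47 lung regions in the clusters, 30.1 tags per kb. A 7.17 kb region with 20.1 tags per kb lay at the other end of the cluster, from between Hoxa11 and Hoxa13 into part of Hoxa13. From low to high coordinate, lung covered Hoxa2 over 100%, Hoxa3 over 84.4%, Hoxa4 over 80.1% and Hoxa5 over 100%. It then covered Hoxa6 over 47.9%, just outside the 50% limit, Hoxa7 over 100% and Hoxa9 over 92.2%. Beyond Hoxa9 the lung values were low, at 23.7% for Hoxa10, 10.9% for Hoxa11 and 28.1% for Hoxa13, and gaps of 4.81 and 7.11 kb lay across Hoxa10 and Hoxa11.

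Heart held short regions spread along the whole of Hoxa, 29 in all, the longest 3.86 kb. Hoxa2, which patterns the hindbrain and the second pharyngeal arch, was covered over 100% in kidney, 100% in lung, 65.8% in heart and 0% in liver. Hoxa7, a gene of trunk patterning, was covered over 100% in kidney, 100% in lung, 60.5% in heart and 0% in liver. Both were above the other heart values of the cluster, of which the next highest was 42.4% for Hoxa6. Hoxa5 had 100% in kidney, 100% in lung, 36.1% in heart and 17.6% in liver. Liver had 12 regions in Hoxa, the longest 2.96 kb, and its highest gene value was 27.4% for Hoxa4. The annotated span of Hoxa3 holds Hoxa4, Hoxa5 and Hoxa6, so regions there are counted for each of them.

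**Figure D3:**
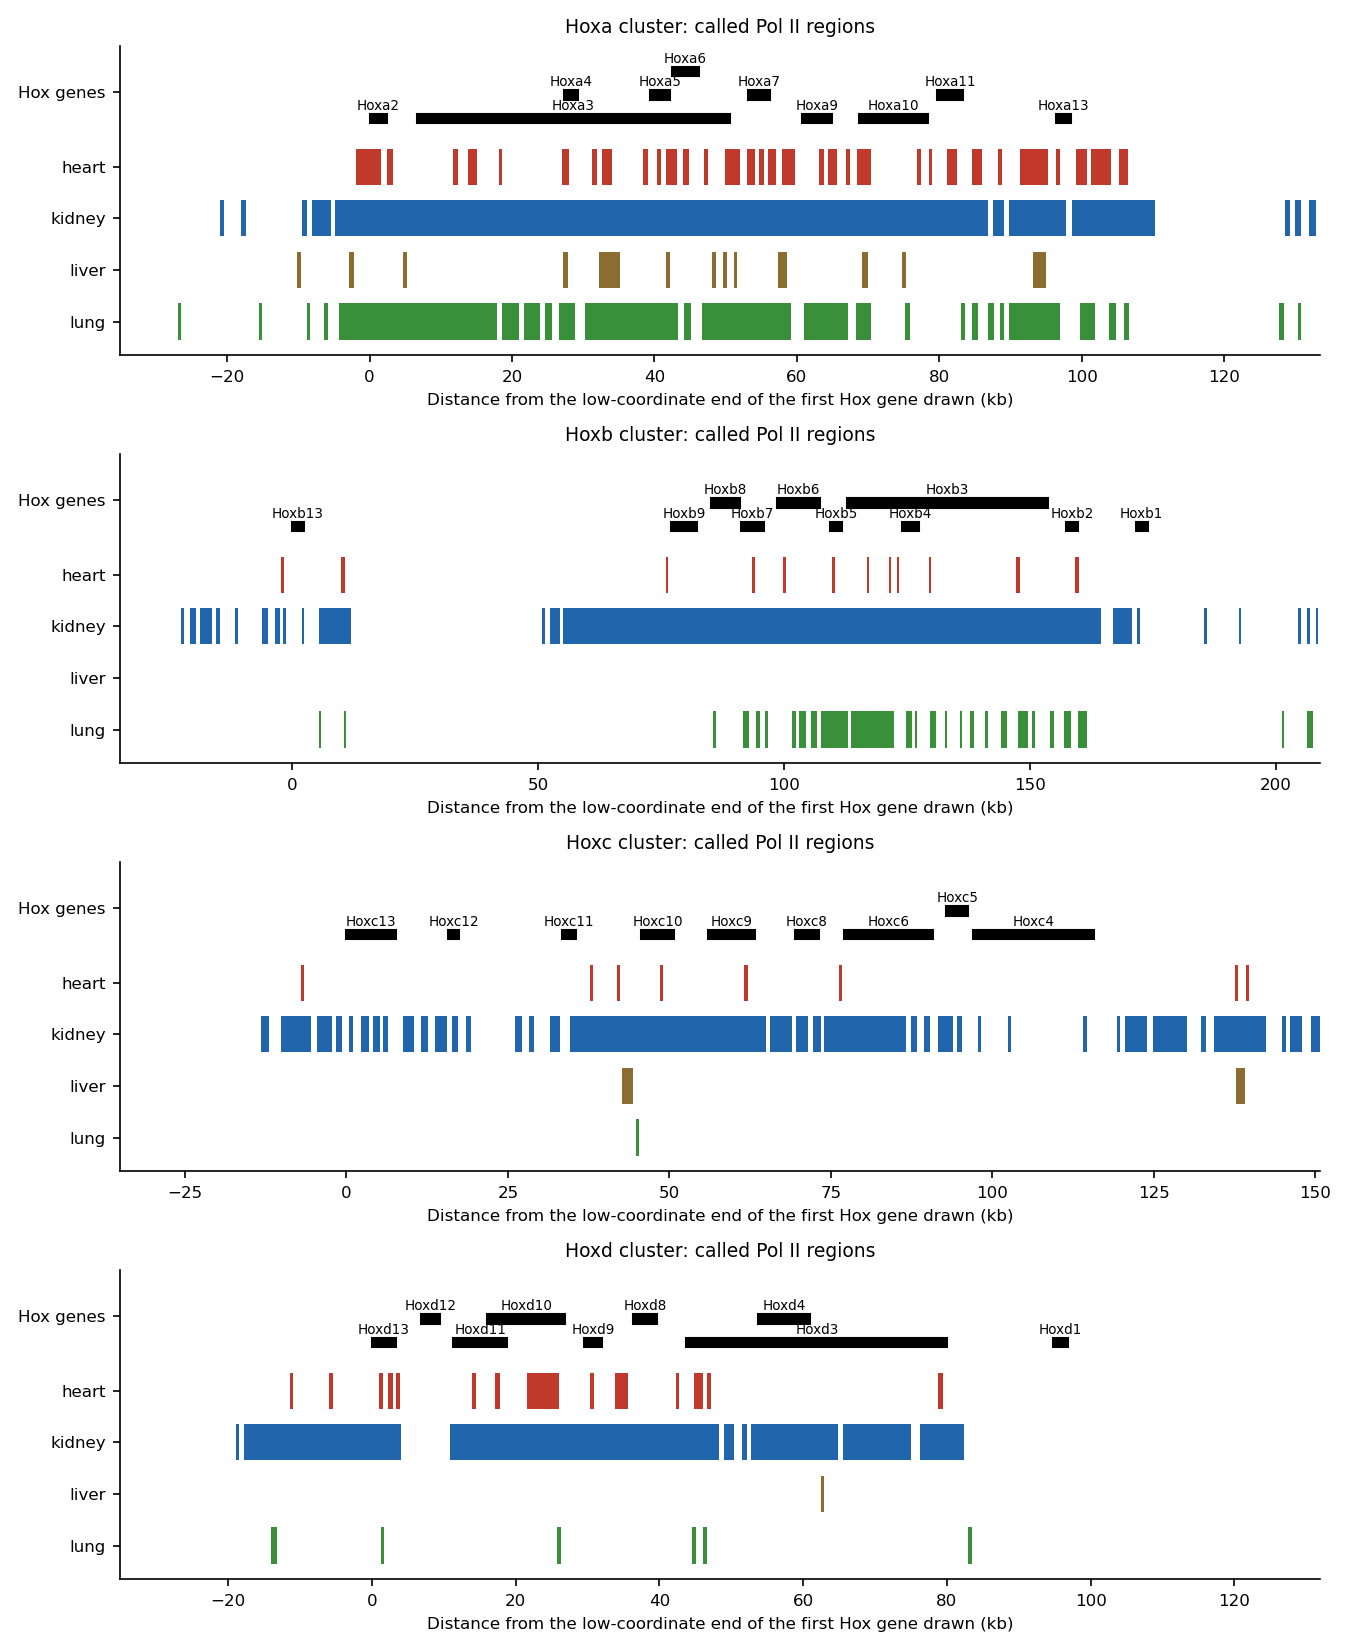
Called Pol II regions along the 4 Hox clusters in heart, kidney, liver and lung (coloured blocks) under the annotated Hox genes (black bars), with distance in kb from the low-coordinate end of the first gene drawn. Kidney shows long unbroken blocks, up to 91.6 kb in Hoxa and 109 kb in Hoxb, lung shows its longest blocks between Hoxa2 and Hoxa9, a 7.17 kb block beside Hoxa13 and blocks in the middle of Hoxb, and the liver row of Hoxb is empty.

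The Hoxb cluster (chr11:96194316-96368254, 173.9 kb) was covered over 71.1% in kidney, 20% in lung, 3.83% in heart and 0% in liver. Here group 13 lies at the low coordinate and group 1 at the high one. The kidney region from 96249327 to 96358660 was the longest in any Hox cluster of the 4 lists, 109 kb with 4977 scaled tags. At 45.5 tags per kb it was also the densest, ranking 8 by tags, 10 by length, and 4 by density among the 145 kidney regions of at least 50 kb. It held Hoxb9, Hoxb8, Hoxb7, Hoxb6, Hoxb5, Hoxb3, Hoxb4 and Hoxb2 whole.

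The region began 22.0 kb before the low-coordinate end of Hoxb9, over the non-coding genes Gm53, Gm51876 and Mir196a-1, and ended 4.64 kb past Hoxb2. Both genes outside it were low in kidney and untouched elsewhere. Hoxb13, known from prostate and tail development, had 15.6% covered in kidney and 0% in heart, liver and lung. Hoxb1, which sets the identity of a hindbrain segment, had 30.97% in kidney and 0% in heart, liver and lung. A stretch of 38.9 kb with no kidney region separated the Hoxb13 side from the rest. The gap that takes in this stretch was longer in the other 2 lists with Hoxb regions. It was 65.3 kb in heart and 74.6 kb in lung, where it ran on past all of Hoxb9.

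In lung, Hoxb5 was the covered Hoxb gene, with 100% in kidney, 100% in lung, 28.2% in heart and 0% in liver. The lung regions over and beside it were 5.61 kb with 16.2 tags per kb and 8.66 kb with 19.6 tags per kb. Around it the lung values lay just under the limit, at 40.8% for Hoxb7, 39.2% for Hoxb6, 43.4% for Hoxb3, 45.7% for Hoxb4 and 42.3% for Hoxb2. Hoxb8 had 11.2% and Hoxb9 0% in lung. Hoxb8, a gene also used in blood cells, and Hoxb9 were whole in kidney and at 0% in heart and liver. Heart values in Hoxb stayed between 0% and 28.2%. The span of Hoxb3 holds all of Hoxb4, so the pair shares regions.

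The Hoxc cluster (chr15:102921131-103036856, 115.7 kb) was covered over 60.02% in kidney, 0.432% in lung, 2.27% in heart and 1.38% in liver. Kidney coverage was broken into 24 regions and fell into a dense centre and patchy ends. The longest, 102955760 to 102986120, was 30.4 kb with 28.0 tags per kb and held Hoxc10 and Hoxc9 whole. Hoxc10, a gene of the lumbar spinal cord and hindlimb, had 100% in kidney, 9.80% in heart and 0% in the other lists, and Hoxc9 had 100% in kidney, 8.46% in heart and 0% in both other lists. These 2 were the only Hoxc genes touched by a region outside kidney.

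The other 7 Hoxc genes were at 0% in heart, liver and lung. In kidney Hoxc6 was covered over 83.4%, mostly by a 12.6 kb region with 25.9 tags per kb, and Hoxc8, which acts in the spinal cord and skeleton, over 75.8%. Just inside the limit in kidney stood Hoxc5 at 50.6% and Hoxc12 at 53.9%, and just outside it Hoxc13 at 46.9% and Hoxc11 at 43.2%. Hoxc13, a gene of hair and nail formation, was crossed by several regions of 0.649 to 1.18 kb. At the high-coordinate end Hoxc4 had 8.68%, with an 11.2 kb stretch of its span free of regions.

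The Hoxd cluster (chr2:74668225-74765142, 96.9 kb) was covered over 73.5% in kidney, 2.71% in lung, 13.4% in heart and 0.516% in liver. A 21.8 kb kidney region (74650452 to 74672246, 23.0 tags per kb) held Hoxd13 and, outside the cluster, the homeobox gene Evx2. After a gap of 6825 bp, which holds all of Hoxd12, a 37.4 kb region (74679071 to 74716507, 32.4 tags per kb) held Hoxd11, Hoxd10, Hoxd9 and Hoxd8. This second region began 0.487 kb before the annotated low end of Hoxd11, whose start window is printed above. A 12.0 kb region with 24.2 tags per kb then held Hoxd4 and Mir10b.

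Hoxd12 and Hoxd1 had 0% in each of the 4 lists. The heart list also left Hoxd12 in a gap, of 10003 bp, and the lung list left Hoxd12 and Hoxd11 in a gap of 24.0 kb. Hoxd1, whose role in mouse includes sensory neurons, lay 12.3 kb beyond the last kidney region of the cluster. Hoxd13 had 100% in kidney, 14.8% in lung, 33.9% in heart and 0% in liver. Hoxd11 had 100% in kidney, 17.0% in heart and 0% in the other lists. Hoxd3, at the far edge, had 87.8% in kidney, 3.11% in lung, 6.83% in heart and 1.38% in liver.

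Hoxd10, a limb and spinal cord gene, had 49.3% in heart, just outside the limit, 100% in kidney, 0% in liver and 4.62% in lung. Its heart value came mainly from the longest heart region in any Hox cluster, 4.57 kb with 19.7 tags per kb. Hoxd9 had 26.7% in heart, 100% in kidney and 0% in liver and lung. Hoxd8 and Hoxd4 were whole in kidney and at 0% in the other lists. The spans of Hoxd10 and Hoxd11 overlap, and that of Hoxd3 holds Hoxd4. Over all 4 clusters lung was above heart for 17 genes, below it for 8 and equal for 14, and in Hoxd heart was above lung for 5 of 9 genes and equal to it for the other 4.

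Levels over whole clusters were highest in kidney in each cluster. With tags counted per kb of cluster, Hoxa had 36.5 in kidney, 14.6 in lung, 6.19 in heart and 1.46 in liver. The exact 95% Poisson intervals were 35.6 to 37.4 in kidney, 13.9 to 15.2 in lung, 5.72 to 6.69 in heart and 1.31 to 1.64 in liver, and they cover counting error only. Kidney was highest and liver lowest. With 1 list per organ the intervals hold no spread between animals, and no difference between organs was tested. They were computed from tags in regions that had passed the caller and leave out that selection. This matters most where little was called: the Hoxc value of lung rests on 1 region of 500 bp. Hoxb had 0.710 in heart (0.589 to 0.847), 30.1 in kidney (29.5 to 30.8) and 3.55 in lung (3.31 to 3.80), and liver had no region. Hoxc had 0.428 in heart (0.316 to 0.566), 14.2 in kidney (13.6 to 14.7), 0.168 in liver (0.119 to 0.229) and 0.0683 in lung (0.0334 to 0.124). Hoxd had 2.58 in heart (2.27 to 2.92), 19.4 in kidney (18.7 to 20.1), 0.0875 in liver (0.0510 to 0.140) and 0.489 in lung (0.376 to 0.626). Lung stood above heart in Hoxa and Hoxb and below it in Hoxc and Hoxd.

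**Figure D4:**
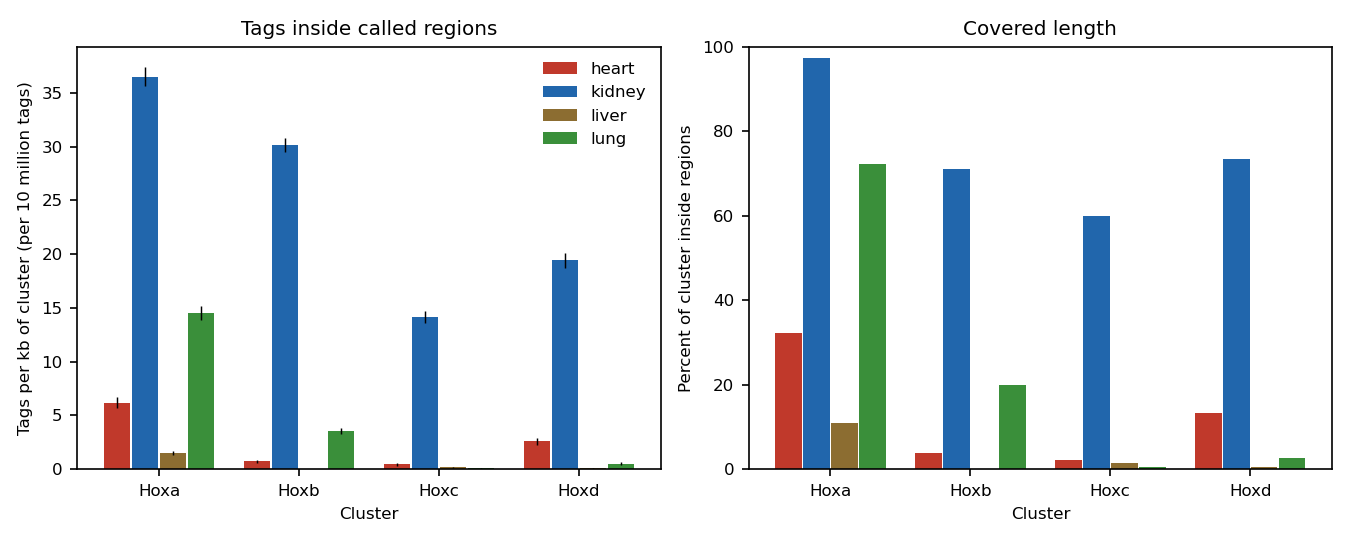
Left, scaled tags inside called regions per kb of each Hox cluster, with exact 95% Poisson intervals for counting error; right, percent of each cluster's length inside regions, both by organ. Kidney is highest in each of the 4 clusters on both measures, from 14.2 tags per kb in Hoxc to 36.5 in Hoxa, and lung exceeds heart in Hoxa and Hoxb.

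Tags outside called regions are not in the lists, so these levels follow how much was called. Per covered kb, the 4 clusters together had 34.4 tags in kidney, 19.4 in lung, 19.1 in heart and 13.5 in liver. Medians over single regions, which weigh short and long regions alike, differed less. The 57 heart regions in the clusters had a median of 19.3 tags per kb, the 42 kidney regions 17.4, the 14 liver regions 13.5 and the 47 lung regions 17.3. The highest was 45.5 in kidney, 30.1 in lung, 26.6 in heart and 17.0 in liver. The lowest was 12.7 in kidney, 13.5 in lung, 13.2 in heart and 12.2 in liver. Each of these lies under its own list's threshold, so the threshold was not a floor for scaled tags per kb of region. All 57 heart and 14 liver regions lay under 1.5 times their own list's threshold, as did 45 of the 47 lung regions and 32 of the 42 kidney regions. The kidney regions above it included all 7 of at least 10 kb, and 29 of the 32 genes covered in kidney had at least 18.2 tags per kb of span, the heart threshold. Regions of the minimum length, 500 bp, made up 21 of the heart, 4 of the kidney, 6 of the liver and 14 of the lung regions.

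**Figure D5:**
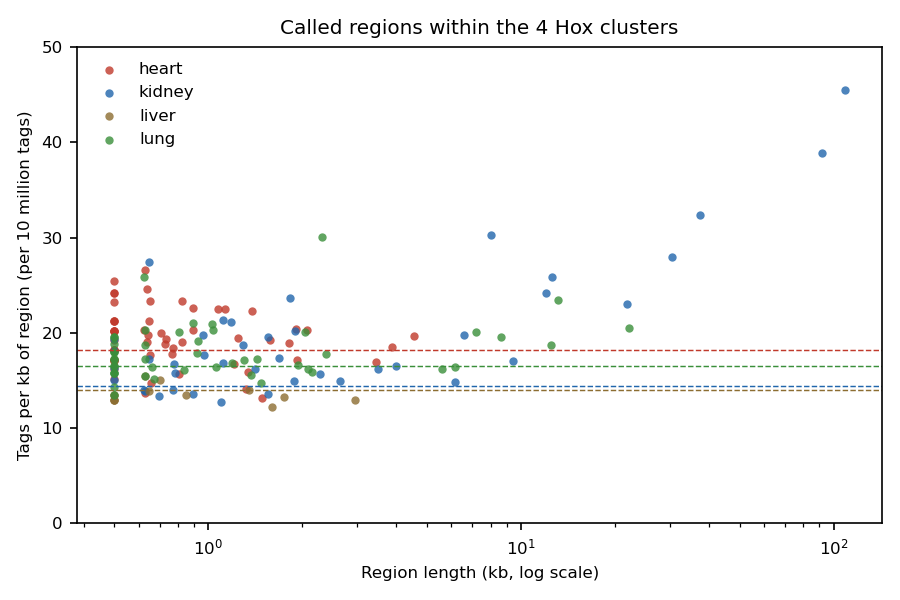
Each called region within the 4 Hox clusters by length (kb, log scale) and scaled tags per kb, coloured by organ, with each list's calling threshold as a dashed line of the same colour. Most points lie near the thresholds, some of them below, and the 2 longest, both from kidney, have 38.9 and 45.5 tags per kb.

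Some regulators lie inside the clusters as non-coding genes. Of the 25 long non-coding RNA genes between the cluster limits, 21 were covered in kidney, 9 in lung, 3 in heart and 0 in liver. Of all 12727 annotated long non-coding RNA genes, 13.9% were covered in kidney, 11.2% in lung, 11.1% in heart and 13.6% in liver, so the heart count was near that background. Many of these genes share regions with Hox genes, as Hotairm1 and Hoxaas3 do in the 91.6 kb kidney region of Hoxa. Covered percent takes no account of strand, so these counts are not separate from those of the Hox genes. Hotairm1 had 100% in kidney, 100% in lung, 41.8% in heart and 20.1% in liver. Hoxb5os had 100% in kidney, 54.5% in lung, 7.78% in heart and 0% in liver. Hottip, just beyond Hoxa13, had 100% in kidney, 55.2% in lung, 65.7% in heart and 0% in liver; in human cells its RNA acts on the posterior HOXA genes. In each of these genes kidney was high, and lung lay above liver.

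The 4 long non-coding genes that kidney did not cover were Hotair, between Hoxc12 and Hoxc11, with 18.8%, Haglr, between Hoxd3 and Hoxd1, with 15.5%, Gm14424 with 0% and Gm30528 with 46.7%. All 6 annotated microRNA genes were covered in kidney, 0 in liver and 0 in lung. Mir10a, beside Hoxb4, was covered in heart as well, over 100%, by a 500 bp region. Of all 1228 annotated microRNA genes, 28.1% were covered in kidney, 23% in lung, 24.9% in heart and 26.4% in liver. These spans are short, 68 to 110 bp in the clusters, so each count turns on single regions.

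The mature microRNAs from these genes show which of them share a seed (bases 2 to 8, in capitals), the part that pairs with target messages. They are RefSeq sequences on GRCm38.p6, read 5′ to 3′, and the 5p arms are shown for both families that occur in more than 1 cluster.
miR-10a-5p: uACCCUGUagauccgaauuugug
miR-10b-5p: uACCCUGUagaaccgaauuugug
miR-196a-5p: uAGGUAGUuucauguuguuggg
miR-196b-5p: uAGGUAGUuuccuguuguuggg
Mir10a lies in Hoxb (chr11:96317186-96317208 for the mature strand) and Mir10b in Hoxd (chr2:74726074-74726096), and both share 1 seed. Mir196a-1 in Hoxb and Mir196a-2 in Hoxc give the same 5p sequence, and Mir196b in Hoxa shares its seed. In kidney the regions holding Mir10a and Mir196a-1 had 45.5 tags per kb, that of Mir196b 38.9, that of Mir196a-2 28.0 and that of Mir10b 24.2. Mir615, with another seed, lay in Hoxc and was covered over 62.0% in kidney.

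The nearest protein-coding genes beside the clusters were mostly not covered. Of the nearest protein-coding genes on each side, Skap2 and Evx1 beside Hoxa, Ttll6 and Skap1 beside Hoxb, Calcoco1 and Smug1 beside Hoxc and Mtx2 beside Hoxd were under 50% in all 4 lists. Their highest values were 46.8% for Smug1 in kidney and 44.5% for Calcoco1 in lung. They lay from 28.1 kb (Ttll6) to 199 kb (Calcoco1) outside the cluster limits. Over all protein-coding genes 21.1% were covered in kidney, so a gene under the limit is the usual case. Kidney regions did lie outside the limits, among them 11.7 kb at 52261014 to 52272763 beyond Hoxa13. Another, of 8.03 kb, lay at 103055433 to 103063458 beyond Hoxc4. Evx2, next to Hoxd13, had 100% in kidney, 9.31% in lung, 5.86% in heart and 0% in liver.

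Start windows were also compared. RefSeq gave 24 windows for 22 of the Hox genes. At least 50% of the window lay in regions for 19 of 24 in kidney, 6 in lung, 8 in heart and 0 in liver. Over 32851 windows of all genes the shares were 37.4% in kidney, 33% in lung, 32.6% in heart and 37.2% in liver. The heart count of Hox windows was thus near its background, and the lung count was a little below. The kidney count was above its background and the liver count below. Of the 24 windows 20 belong to Hoxa or Hoxd genes, 3 to Hoxb and 1 to Hoxc, so they say little of the last 2 clusters. The 8 covered in heart include those of Hoxa5, Hoxa9 and Hoxd10 with 100% of the window covered, although those genes were covered over 36.1%, 28.2% and 49.3% of their spans. The 5 windows below the limit in kidney were those of Hoxa13 (38.7%), Hoxb1, Hoxc4, Hoxd12 and Hoxd1.

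As sequences, the Hox windows had a median GC content of 57.7% and 14.5 CG dinucleotides, against 52.7% and 7 over all windows. The counts ran from 4 to 45 among Hox windows. The letters TATAAA, searched on both strands, were in 4 of 24 Hox windows (16.7%), against 13.6% of all windows. The letters TGATNNAT, a form bound by HOX proteins together with PBX proteins, were also in 4 of 24 (16.7%), against 8.85% of all windows. A match is a description of the letters and not a bound site.

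Genes that act with or on Hox genes were counted in the same way. For these small lists the background is the covered share of all protein-coding genes. It was 21.1% in kidney, 15.1% in lung, 16.1% in heart and 21.9% in liver. Of 9 genes for DNA-binding HOX cofactors, 2 were covered in kidney, 1 in lung, 1 in heart and 1 in liver. Pbx2 was covered in all 4 lists, over 92.3% in kidney, 100% in lung, 100% in heart and 62.5% in liver. Meis1 had 3.20% in kidney, 25.3% in lung, 33.9% in heart and 3.91% in liver.

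Of 27 polycomb genes, which encode silencing complexes, 10 were covered in kidney, 8 in lung, 6 in heart and 9 in liver. Ezh2 and Ezh1 encode alternative methyltransferases of the complex that marks histone H3 at silent Hox genes. Ezh2 had 14.4% in kidney, 3.92% in lung, 2.55% in heart and 9.15% in liver. Ezh1 went the other way, with 68.0% in kidney, 56.2% in lung, 73.8% in heart and 26.9% in liver. Of 11 trithorax genes 4 were covered in kidney, 3 in lung, 3 in heart and 4 in liver. Their median covered percent ranged from 17.0% in lung to 31.9% in liver, and that of the polycomb genes from 15.5% in heart to 40.8% in kidney. The medians of all protein-coding genes ran from 2.26% in heart to 5.07% in kidney.

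Retinoic acid is a vitamin A derivative that turns on Hox genes in embryos. Of 11 genes for its synthesis, breakdown and receptors, 4 were covered in kidney, 3 in lung, 4 in heart and 5 in liver. The receptor gene Rara had 100% in kidney, 96.6% in lung, 94.4% in heart and 89.2% in liver, and Aldh1a2, a synthesis enzyme, had 2.86% to 5.63% in the 4 lists. Of the 6 ParaHox and Cdx genes, relatives of the Hox genes outside the clusters, 0 were covered in any list.

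Markers of other cell types were counted because whole organs hold many. Over all protein-coding genes the covered share was 21.1% in kidney, 15.1% in lung, 16.1% in heart and 21.9% in liver. Of 7 fibroblast and stroma markers 0 were covered in any list, and their median was 1.29% in kidney, 1.25% in lung, 20.4% in heart and 0% in liver. Their summed tags per kb of span were 0.920 in kidney, 0.541 in lung, 3.86 in heart and 0.267 in liver. In kidney Col3a1, Col1a2 and Lum had no region, while Pdgfrb was covered over 13.8%, Pdgfra over 10.5%, Col1a1 over 7.10% and Dcn over 1.29%. Of 6 endothelial markers 1 was covered in kidney, 3 in lung, 3 in heart and 1 in liver. Their summed levels were 1.69 tags per kb in kidney, 11.1 in lung, 19.6 in heart and 2.32 in liver. Of 5 smooth muscle markers 1 was covered in each organ except lung, with 0, and of 6 leukocyte markers 1 in each organ except lung, with 3. Of 5 nerve and neural crest markers 1 was covered in heart, 1 in kidney, 0 in lung and 0 in liver, of 4 adipocyte markers 2 were covered in liver, and of 2 brown fat markers 0 were. The 6 kidney tubule markers had a summed level of 28.0 tags per kb in kidney and at most 1.51 elsewhere. The part of any of these cell types in the Hox coverage was not tested.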

How the data were processed

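Each deposited file lists the regions called for 1 organ. Reads had been aligned to mm10 with Bowtie2 2.2.8 and regions called with HOMER 4.8, per the submitters' processing notes, which give no order of steps. Per the file headers, the caller worked in 500 bp windows at a Poisson p of 0.001 with a fragment length of 78 bp. The signal deposited by the authors is a tag count per region, scaled to 10000000 tags per list, per the file headers. The deposited score and the deposited clonal fold are the authors' own values per region; the score was used to rank regions and the fold was not used here. Region length comes from the deposited limits. The sources used here do not state how near-identical sequences, strand or the reads of both mice were handled.

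Regions were intersected with RefSeq gene spans on GRCm38.p6, from which symbols, coordinates and start windows were taken. Covered percent is the share of a span inside regions, and a region's tags were shared out by overlapped length. The intersection code was tested on simulated data, where 100% of 2000 intervals equalled per-base counts. With 1 list per organ no test was made. Exact 95% Poisson intervals were computed from unscaled tags in cluster regions. Every Hox gene entered the counts, and genes were taken in chromosome order, with full values for genes at region edges and for genes whose call differed between organs, and other genes came from lists of cofactors, regulators and cell type markers. The members and lists were chosen with earlier results of these data known. Alternatives changed the covered percent, the regions kept, the gene and cluster limits, the joining of regions and the denominator. Python 3.11.15, numpy 2.4.6, pandas 2.3.3, scipy 1.17.1 and matplotlib 3.10.9 were used. Values of 1 Hox gene and of 1 marker gene are not reported here.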

Additional observations from a re-analysis of the deposited data

How the results depend on the processing

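Kidney covered the most Hox genes and liver the fewest under each of the 11 alternatives tried for the count of covered genes, with heart tied with liver at limits of 75% and 100% of the span. The count in heart (2) was 1 with the top 50% of regions by tag count, 1 with regions of at least 20 tags, 13 with a limit of 25% of the span, 0 at 75%, 0 at 100% and 22 with any overlap. The count in kidney (32) was 15 with the top 50% by score. The count in liver (0) was 1 at 25% and 6 with any overlap. The count in lung (8) was 15 at 25%, 4 at 100% and 21 with any overlap. With only regions at or over the highest threshold of the 4 lists, an alternative chosen after seeing the data, heart had 1, kidney 29, liver 0 and lung 6. The longest stretch was 21.4 kb in heart (4.57 kb unjoined) and 79.3 kb in lung (22.2 kb unjoined) when gaps up to 2500 bp were joined. Tags over the 4 clusters per covered kb rather than per kb of cluster were 19.1 in heart (2.19), 13.5 in liver (0.371) and 19.4 in lung (4.49). In kidney they were 34.4 (25.6), still the highest and within 1.5 times. Of 255 alternatives for single clusters 49 moved by more than 1.5 times, 120 stayed within 1.5 times a value above 0, and 86 were 0 in both, which says nothing of stability. No paired analysis was possible because each organ has 1 list. The lists hold only regions that passed the caller, whose threshold on the scaled tags falls with depth, and heart, the shallowest list, had the highest. Polymerase signal at Hox genes too weak to be called was not measured. Some called regions had fewer scaled tags per kb than their list's threshold.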
